A study of Mus musculus with 2 samples.

Results

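*Timd4*-positive adipose tissue macrophages (ATMs) were described in the epididymal fat of male C57/BL6 mice, in 1 library from mice kept on control diet (CD) and 1 library from mice fed a high fat diet (HFD) overnight. Each library pooled the fat pads of 3 mice, and the cells had been sorted as CD45+Lin-Ly6Clow/-F4/80+ macrophages and captured with droplet-based 3′ scRNA-seq (10X Genomics, V2 chemistry). Cells were kept with 200 to 3500 genes and at most 10% of unique molecular identifiers (UMIs, counts of captured transcripts) from mitochondrial genes, which left 2364 of 4459 CD barcodes and 2021 of 3163 HFD barcodes. Members were chosen by their counts: at least 1 UMI of *Timd4*, under 10 UMIs of *Lyz1*, and none of *Prg4* and *Icam2*, which mark peritoneal macrophages. This rule gave 331 of 2364 kept cells in CD and 52 of 2021 in HFD, 383 cells in all. The levels of these 4 genes in the members are therefore a description and not a result.

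Tim4, the protein made from *Timd4*, is a receptor for phosphatidylserine, the lipid that dying cells expose, and is carried by long-lived macrophages of many tissues. Such resident macrophages are known for the uptake of dead cells and of debris, for scavenger and lectin receptors, and for self-maintenance with little input from blood monocytes. *Lyve1*, a hyaluronan receptor, and *Folr2*, a folate receptor, are commonly used to mark them. In adipose tissue they lie along vessels and take up lipid and iron.

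With 1 library per diet no test between diets was possible, since cells are not replicates. Levels are given as CPM, a gene's UMIs scaled by all UMIs of the cells summed, and a difference as the log2 ratio of 2 such levels with its exact 95% interval, which covers counting error only. A gene was compared where its mean level gave at least 20 expected UMIs in the smaller of both cell sets, and a ratio of 2-fold or more in either direction was counted. The 331 CD members held 1361204 UMIs and the 52 HFD members 149781, so HFD values are the less precise. The 2 libraries shared 14 barcodes, of which 7 were kept cells in both and 0 were members in both.

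The gate reads raw UMIs, and the libraries differed in depth. Members held a median of 4021 UMIs per cell in CD and 2321 in HFD, and all other kept cells 4663 and 2835. Of the members, 233 in CD and 46 in HFD had a single *Timd4* UMI, 66 and 6 had 2 UMIs, and 32 and 0 had 3 or more, where 3 counts of 52, the limit set for a count of 0, are 5.77%. At the *Lyz1* limit, 5 CD members and 0 HFD members held 7 to 9 UMIs, while 2 *Timd4*-positive cells in CD and 2 in HFD were left out with 10 to 12 UMIs. In all, *Lyz1* kept 32 of 368 *Timd4*-positive CD cells and 12 of 72 HFD cells out of the members, and *Prg4* or *Icam2* kept out 8 and 10.

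The share of *Timd4*-positive cells was lower in the HFD library than in the CD library, also at matched depth. Members made up 14.0% of kept cells in CD (exact binomial 95% interval 12.6 to 15.5%) and 2.57% in HFD (1.93 to 3.36%). When every cell that passed the *Lyz1*, *Prg4* and *Icam2* limits was thinned to 1500 UMIs, a *Timd4* UMI was kept in 8.97% of 1605 cells in CD (7.62 to 10.5%) and 3.61% of 776 in HFD (2.41 to 5.17%). This left out 152 CD and 525 HFD cells as too shallow. Among cells of at least 2000 and under 4000 UMIs the share was 19.9% in CD and 7.52% in HFD, and from there to under 8000 UMIs it was 23.5% and 2.78%. In the range of 8000 UMIs and over, with 114 and 37 cells, the intervals overlapped. As a background, cells with at least 10 *Lyz1* UMIs and no UMI of *Prg4* or *Icam2* were taken. Of these, 1.35% of 520 in CD and 0.497% of 604 in HFD had a *Timd4* UMI after thinning. Their median depths before thinning were 7998.5 and 6437 UMIs. Whether the lower share in HFD reflects fewer such cells or less *Timd4* RNA per cell cannot be told apart in these counts.

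**Figure D1:**
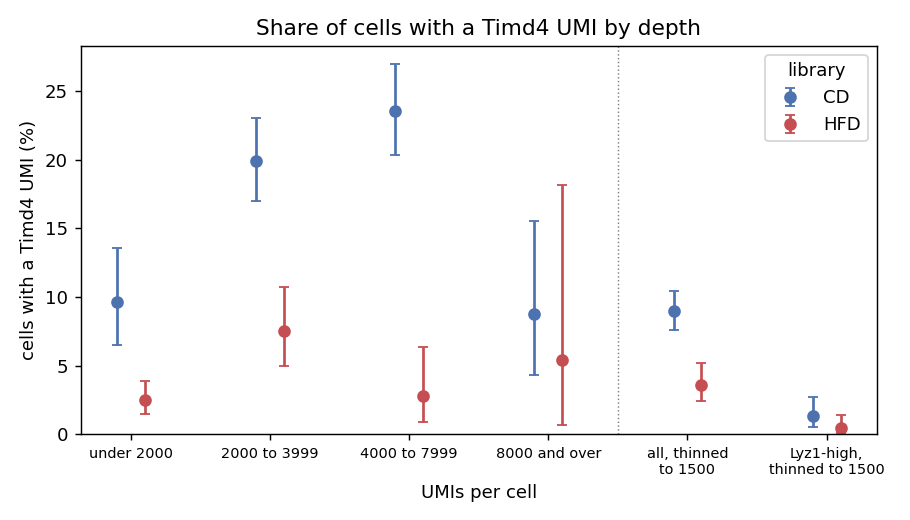
Share of cells with a *Timd4* UMI (y axis, %) by UMIs per cell (x axis) in the CD (blue) and HFD (red) libraries, with exact binomial 95% intervals. The points right of the dotted line are thinned to 1500 UMIs. They show all cells that pass the other limits of the rule, and cells with at least 10 *Lyz1* UMIs and none of *Prg4* and *Icam2*. The CD share exceeds the HFD share in the first 3 depth ranges and after thinning (8.97% against 3.61%).

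The label was checked on the 2 markers that the gate did not use. *Folr2* was seen in 323 of 331 CD members (97.6%) and 45 of 52 HFD members (86.5%), and *Lyve1* in 263 (79.5%) and 24 (46.2%). Neither was seen in 7 CD members (2.11%) and 6 HFD members (11.5%). After thinning to 1500 UMIs, *Folr2* was found in 93.7% of CD members against 62.5% of all other kept cells, and in 77.8% against 29.4% in HFD. *Lyve1* was found in 61.0% against 28.9% in CD and in 40.0% against 12.8% in HFD. Both markers were thus more frequent in the members than in the rest in either library, and less frequent in HFD members than in CD members.

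Markers of other cell types were summed in the members and in other cells. *Prg4* and *Icam2* are at 0 in the members by the rule, and the other cells hold all cells that it kept out for them, so the peritoneal sums are a description and not a result. Of the 8 other peritoneal macrophage markers, 4 were detected in CD members, at a summed 5.88 CPM against 20.2 CPM in other cells, and 1 in HFD members, at 6.68 against 88.3 CPM. *Gata6*, the defining factor of peritoneal macrophages, was at 0 in both libraries' members. Of 4 hemoglobin genes, the sum was 66.1 CPM in CD members against 953 CPM in other cells, and 26.7 against 956 CPM in HFD, with *Hbb-bs* the most abundant in the other cells. The 4 Kupffer cell markers summed to 21.3 CPM in CD members and 6.68 CPM in HFD members, against 16.8 and 11.5 CPM in other cells, with *Clec4f* at 0. The 6 T or NK cell markers summed to 7.35 CPM in CD members (interval 3.52 to 13.5), from 10 UMIs in 4 cells, against 2.20 CPM in other cells (1.41 to 3.27), and to 0 in HFD members. Of 5 adipocyte markers, *Cfd* gave 68 of 88 UMIs in CD members and 13 of 16 in HFD members, and the sum was 64.6 and 106.8 CPM against 49.3 and 29.7 CPM in other cells. Of 6 dendritic cell markers, *Cd209a* gave 317 of 347 UMIs in CD and 40 of 52 in HFD, and the sum was 255 and 347 CPM against 134 and 78.2 CPM, with *Flt3* and *Clec9a* at 0. Without the 2 HFD members rich in *Ccl17*, described next, the HFD sum was 138 CPM (interval 82.0 to 219). Cycling genes summed to 128.6 CPM in CD members, in 31 cells, against 91.6 CPM in other cells, and to 0 in HFD members, where 3 counts would be 20.03 CPM, against 29.1 CPM. When all cells with UMIs of at least 2 markers of 1 other type were left out, 16 CD and 1 HFD members among them, 345 genes in CD and 122 in HFD were past 2-fold against other cells, where 370 and 128 were with them. This used no cycling, peritoneal or Kupffer cell markers and not *Cd209a*, whose part in the results was not tested.

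Of the members, 3 were rich in *Ccl17*, a chemokine of dendritic cells. In CD, 1 member held 32 UMIs of *Ccl17*, 41 of *Ccl22*, both chemokines that attract T cells, and 16 of *Ccr7*, the receptor that guides cells to lymph nodes, with 1 UMI of *C1qa*. In HFD, 2 members held all 132 *Ccl17* UMIs. The first had 30 *Ccl17* UMIs, 18 of *Cd209a* and 0 of *Ccr7*, *Ccl22*, *C1qa*, *C1qb*, *C1qc*, *Lyve1* and *Folr2*. The second had 102 *Ccl17*, 8 *Ccr7* and 7 *Ccl22* UMIs beside 23 of *C1qa*, 10 of *Folr2* and 4 of *Lyve1*, and with 12681 UMIs it was the deepest HFD member. These 3 cells were found after the values were seen, and some ratios are also given without them.

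Against all other kept cells of their library, the members were marked by lectin receptors and other genes of resident macrophages. They were low in genes of monocyte-derived cells, which is in part a description, since the *Lyz1* limit belongs to the rule. In CD, 189 of 5936 genes (3.18%) were at least 2-fold higher in the members and 181 (3.05%) at least 2-fold lower. In HFD, 93 of 860 genes (10.8%) were higher and 35 (4.07%) lower. With the other cells weighted to the depth of the members, the 370 genes past 2-fold in CD became 166 and the 128 in HFD became 47. Beyond the genes of the rule, mitochondrial and ribosomal genes, 31 genes were higher and 14 lower in both libraries in that manner, with their direction kept under every alternative setting listed for the fit, and 11 of the 12 highest and the 12 lowest are named here. Since the rule keeps cells rich in *Lyz1* out of the members, the other cells hold them all. Among them are 520 cells in CD and 619 in HFD with at least 10 *Lyz1* UMIs and no UMI of *Prg4* or *Icam2*.

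The 4 genes with the highest mean ratio encode CD209 lectins, C-type lectins of macrophages and dendritic cells that bind sugars of microbes and host glycoproteins. *Cd209b* was at 462 CPM in CD members and 99.7 CPM in other cells, and at 300 against 35.3 CPM in HFD, which is 4.63-fold and 8.52-fold higher (log2 ratio 2.21, interval 2.07 to 2.36, and 3.09, 2.60 to 3.55). *Cd209f* was at 1977 against 648 CPM in CD and 1095 against 129 CPM in HFD (log2 ratios 1.61 and 3.09). *Cd209g* was at 630 against 232 CPM and 421 against 63.1 CPM (1.44 and 2.74). *Cd209d* was at 875 against 276 CPM and 314 against 59.0 CPM (1.66 and 2.41). For each of the 4 genes the intervals of the 2 libraries did not overlap, the HFD ratio being the higher, with other cells at lower levels in HFD than in CD.

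The lectin genes lie within 1 stretch of mouse chromosome 8 (mm10), which also holds *Cd209c* and *Cd209e*: *Cd209a* at chr8:3743397-3748984, *Cd209d* at chr8:3871824-3878555, *Cd209b* at chr8:3917655-3926844 and *Cd209f* at chr8:4102787-4105835 on the minus strand, and *Cd209g* at chr8:4134098-4137707 on the plus strand. *Timd4* lies on chromosome 11 at chr11:46810800-46844332, plus strand. The 150 bases before the RefSeq start (GRCm38.p6) are printed for *Timd4*, the gene that chose the cells, and for *Cd209f* and *Cd209g*, whose upstream sequences are near copies. For both lectins this start lies inside the gene span given above, which is from GENCODE. In the lectin pair, capitals mark a run of 136 bases that is identical in both. The whole printed windows lie at chr8:4105765-4105914 (minus) and chr8:4134586-4134735 (plus). Other pairs among the 5 lectin genes shared runs of at most 10 bases. In *Timd4* (chr11:46810649-46810798, plus), capitals mark the letters TCAGCA, the reverse complement of the MAF half-site TGCTGA, searched on both strands. These letters stand in 10.1% of 32851 promoter windows of this length, so a match is a description only.
Timd4: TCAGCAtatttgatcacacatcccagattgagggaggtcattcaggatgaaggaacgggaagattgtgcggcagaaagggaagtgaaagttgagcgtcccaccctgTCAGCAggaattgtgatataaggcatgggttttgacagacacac
Cd209f: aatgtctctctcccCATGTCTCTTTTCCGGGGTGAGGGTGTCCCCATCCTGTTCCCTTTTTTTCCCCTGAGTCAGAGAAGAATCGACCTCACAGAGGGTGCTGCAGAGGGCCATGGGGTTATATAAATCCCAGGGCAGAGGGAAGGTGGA
Cd209g: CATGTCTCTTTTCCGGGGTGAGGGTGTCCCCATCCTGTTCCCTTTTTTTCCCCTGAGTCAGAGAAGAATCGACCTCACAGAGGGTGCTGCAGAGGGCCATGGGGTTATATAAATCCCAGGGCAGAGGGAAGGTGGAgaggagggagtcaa
These windows lie before the RefSeq starts, while the libraries read the 3′ ends of transcripts. Whether the 3′ ends of *Cd209f* and *Cd209g* are alike enough to make their separate levels uncertain was not tested.

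Among the other named genes, *Lyve1* was at 707 against 256 CPM in CD and 527 against 91.1 CPM in HFD (log2 ratios 1.46 and 2.53), and *Folr2* at 2272 against 997 CPM and 1202 against 271 CPM (1.19 and 2.15). *Fcna*, a soluble lectin of the complement pathway, was at 948 against 373 CPM and 955 against 227 CPM (1.35 and 2.08). *Cbr2*, a carbonyl reductase, had ratios of 1.22 and 2.33, *Ednrb*, an endothelin receptor, 1.33 and 1.98, *Ly6e* 1.36 and 1.99, and *Ms4a7* 1.19 and 2.01. All 11 higher genes named here had a larger ratio in HFD than in CD.

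The lower genes were led by *Ear2*, a ribonuclease of the eosinophil-associated family, at 86.0 against 919 CPM in CD (log2 ratio -3.42) and 147 against 1734 CPM in HFD (-3.56). *Fn1*, fibronectin, was at 151 against 1611 CPM in CD (-3.41) and 227 against 1954 CPM in HFD (-3.11), and 1 cell held 55.9% of its UMIs in HFD members. The inflammatory cytokine gene *Il1b* had ratios of -2.46 and -1.35, and -2.96 in HFD without the member that held 35 of its 50 UMIs. *Cxcl2*, a chemokine for neutrophils, had ratios of -1.52 and -1.16, and *Cd52*, a surface glycoprotein of leukocytes, -2.38 and -1.62. *Tnfaip3*, an inhibitor of NF-κB signalling, had ratios of -1.11 and -1.78. The others were *Phlda1*, *Ccrl2*, *Bcl2a1d*, *Rgs1*, *Lsp1* and *S100a11*, with ratios between -3.34 and -1.16.

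**Figure D2:**
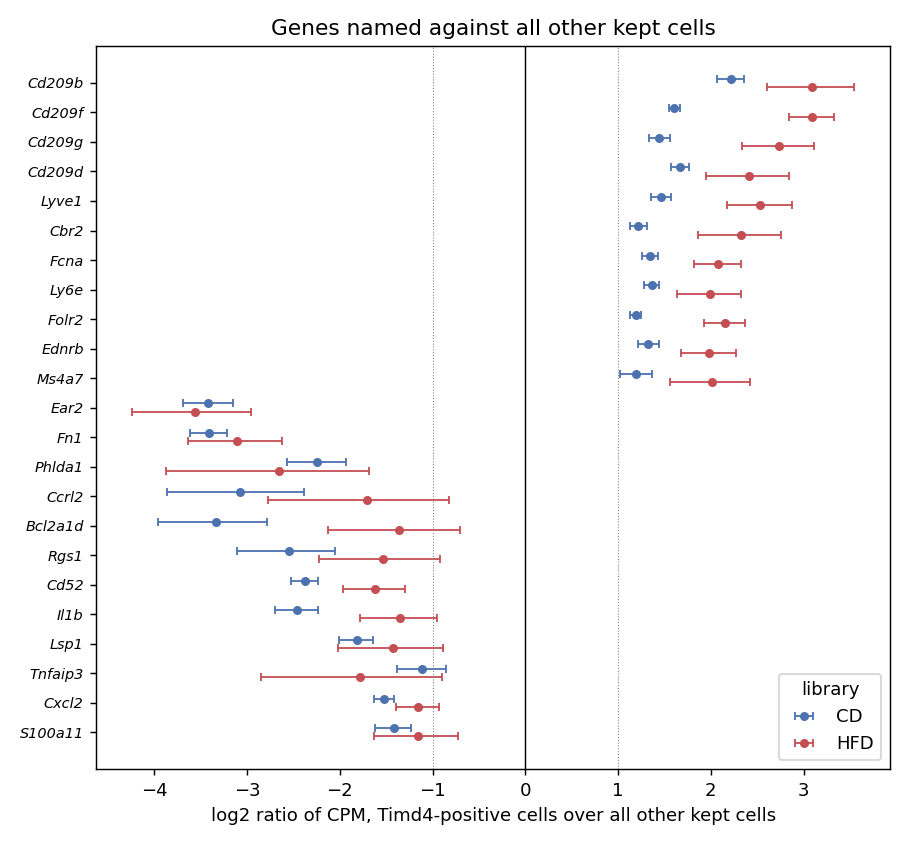
Log2 ratio of CPM of *Timd4*-positive cells over all other kept cells (x axis) for the 11 higher and 12 lower named genes (y axis), in CD (blue) and HFD (red), with exact 95% counting intervals. Dotted lines mark a ratio of 2-fold. The CD209 lectins stand at the top, and *Ear2* is lowest in HFD, at -3.56.

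The counts of every list against all other kept cells stand beside the shares over all genes compared. These were 3.18% higher and 3.05% lower in CD, and 10.8% and 4.07% in HFD. Several lists are short, so a single gene changes their share by much. By fixed lists, 18 of 20 resident macrophage markers were compared in CD, of which 11 were at least 2-fold higher and 0 lower, with a median log2 ratio of 1.11 against 0.09 over all genes compared. In HFD, 17 of 18 were higher, with a median of 1.5998 against 0.07. The list was drawn up with such cells in mind, and the study's own marker genes are part of it, so it is not independent evidence. The genes other than the named ones included *Cd163*, the receptor for hemoglobin bound to haptoglobin, with ratios of 1.30 and 1.57, *Mrc1*, the mannose receptor, with 0.89 and 1.20, and *Selenop*, a carrier of selenium, with 1.13 and 1.63. *F13a1*, a subunit of clotting factor XIII, had ratios of 0.97 and 1.11, *Csf1r*, the receptor for the macrophage growth factor CSF1, 0.74 and 1.02, and *Adgre1*, which encodes F4/80, 0.46 and 0.36.

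Receptors and ligands for dying cells were measured beside *Timd4*. Of 17 other TIM family genes and phosphatidylserine receptors, 6 were compared in CD, with 1 at least 2-fold higher and 0 lower, and 3 in HFD, with 2 higher. *Stab1*, a phosphatidylserine and scavenger receptor, was at 491 against 228 CPM in CD and 507 against 160 CPM in HFD (log2 ratios 1.11 and 1.67). *Axl*, a receptor kinase for dying cells, was lower in CD (36.0 against 53.0 CPM, ratio -0.56, interval -1.01 to -0.14) and not compared in HFD. Of the bridging ligands and engulfment genes, 15 of 17 were compared in CD, with 2 higher, 0 lower and a median of 0.41, and 8 in HFD, with 3 higher, 0 lower and a median of 0.39. *Gas6*, which tethers phosphatidylserine to such kinases, was at 799 against 362 CPM in CD and 461 against 137 CPM in HFD (1.14 and 1.74). *C1qa*, a chain of the complement protein C1q that coats dead cells, was at 5807 against 3607.5 CPM and 4126 against 2035 CPM (0.69 and 1.02).

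Scavenger and lectin receptors had 9 of 20 compared genes higher and 0 lower in CD (median 0.91), and 11 of 15 in HFD (1.63). *Fcgr3*, an Fc receptor for antibodies, had the lowest ratio of that list in both libraries (0.27 and -0.44). For iron and heme handling, 5 of 13 genes were higher and 0 lower in CD (median 0.90) and 3 of 7 in HFD (0.88), among them *Blvrb*, biliverdin reductase, with 1.07 and 1.35. *Slc40a1*, the iron exporter ferroportin, was at 109 against 33.8 CPM in CD (1.69). Of the complement genes, 3 of 11 were higher in CD and 5 of 10 in HFD, with 1 lower in HFD, and *C4b* had ratios of 1.43 and 1.51. Lysosomal genes had 48 of 51 compared in CD, with 1 higher, 1 lower and a median of 0.36, and 32 in HFD, with 3 higher, near the 10.8% of all genes, 0 lower and a median of 0.22. Their most abundant member, *Ctsb*, a cathepsin, was at 3317 against 1918 CPM and 3105 against 1592 CPM (0.79 and 0.96), while *Ctsd*, another cathepsin, had ratios of -0.15 and -0.87. The endocytosis list had 0 of 23 genes past 2-fold in CD and 3 of 16 higher in HFD, led by the adaptor *Dab2* (0.81 and 1.35).

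Lipid genes went in different directions. *Cd36*, a receptor for fatty acids and lipoproteins, was at 1344 against 744 CPM in CD and 2637 against 990 CPM in HFD (0.85 and 1.41). *Abca1*, the exporter of cholesterol to lipoproteins, was at 225 against 104 CPM and 320.5 against 115.9 CPM (1.11 and 1.47). *Apoe*, an apolipoprotein that accepts cholesterol, was at 14241 against 7826 CPM and 12719 against 6760 CPM (0.86 and 0.91). Of the cholesterol efflux and LXR targets, 2 of 13 were higher and 0 lower in CD, and 1 of 4 higher in HFD. *Nr1h3*, which encodes LXRα, gave 6 UMIs in CD members and 4 in HFD members and was not compared. *Lpl*, lipoprotein lipase, was lower (267 against 842 CPM, -1.66, and 461 against 863 CPM, -0.91). Of the cholesterol synthesis and uptake genes, 3 of 7 were at least 2-fold lower and 0 higher in CD, and 0 of 18 could be compared in HFD. *Lipa*, the lysosomal acid lipase, had ratios of 0.22 and -0.04, *Pltp*, the phospholipid transfer protein, 0.27 and -0.03, and *Klf4*, a transcription factor, 0.61 and 0.44.

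Genes of monocyte-derived cells had 0 of 19 higher and 12 lower in CD (median -1.82), and 1 higher and 9 lower of 16 in HFD (median -1.14). The gene higher in HFD, *Plac8*, rested on 1 cell with 35 of its 36 UMIs. *Ccr2*, the receptor that brings monocytes into tissue, was at 198 against 606 CPM in CD (-1.62) and 314 against 615 CPM in HFD (-0.97), yet 93 CD members (28.1%) and 17 HFD members (32.7%) held a *Ccr2* UMI. MHC class II presentation genes had 2 of 11 lower and 0 higher in CD (median -0.71) and 1 of 7 lower in HFD (median -0.45). Their most abundant member, *Cd74*, the invariant chain, was at 14083 against 22044 CPM in CD and 19809 against 26724 CPM in HFD (-0.65 and -0.43), and the HFD ratio was -0.72 without the members rich in *Ccl17*. Lipid-associated macrophage genes, which mark macrophages of obese fat, had 5 of 10 lower and 0 higher in CD and 1 of 4 lower and 1 higher in HFD. Transcription factors of macrophages had 3 of 26 lower and 0 higher in CD and 3 of 13 higher and 0 lower in HFD. *Maf*, a factor of resident macrophages, had ratios of 0.86 and 1.42, and *Id2* -2.18 and -0.60.

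Of the remaining lists, chemokines and cytokines had 2 higher and 5 lower of 18 in CD, and 1 higher and 2 lower of 10 in HFD. *Ccl8*, a monocyte chemoattractant, had a ratio of 1.17 in CD, *Ccl7*, another, 0.82 and 1.34, and *Il6* -3.02 in CD. Growth factors had 2 higher and 1 lower of 9 in CD and 1 higher of 4 in HFD, with *Igf1* at 497 against 234 CPM and 260 against 109 CPM (1.09 and 1.26) and the epidermal growth factor family member *Areg* at 10.3 against 110.3 CPM in CD (-3.42). Interferon-stimulated genes had 1 of 12 higher in CD and 2 of 6 in HFD, led by *Ly6e*. Of the heat shock genes, 0 of 12 were past 2-fold in CD and 3 of 10 were higher in HFD, where 10.8% of all genes were. The immediate early genes had 1 of 25 lower in CD and 0 of 22 past 2-fold in HFD, and the noncoding RNAs 0 of 3 and 0 of 2. These 3 lists had medians of 0.08, 0.20 and 0.32 in CD and 0.26, 0.25 and 0.41 in HFD.

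**Figure D3:**
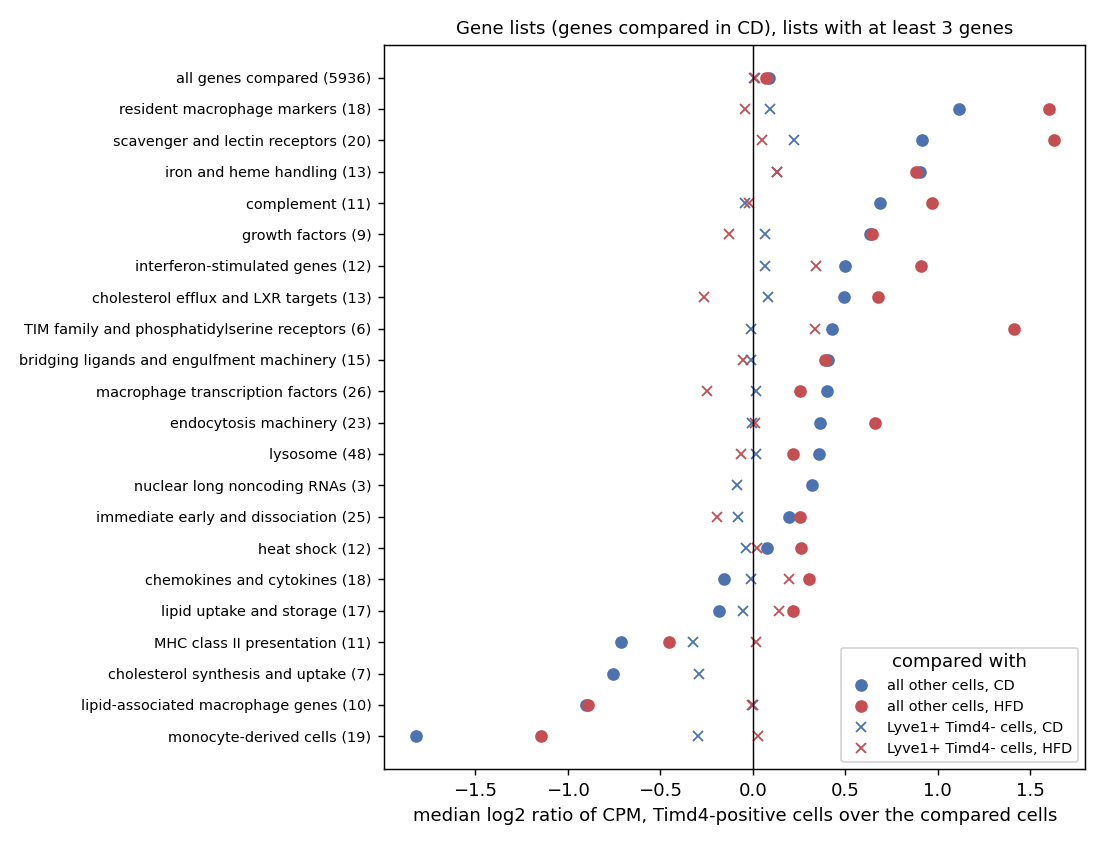
Median log2 ratio of CPM of *Timd4*-positive cells (x axis) over all other kept cells (dots) or over *Lyve1*-positive *Timd4*-negative cells (crosses) for each gene list (y axis, with the number of genes compared in CD), in CD (blue) and HFD (red). Medians reach from -1.82 (monocyte-derived cells in CD) to 1.63 (scavenger and lectin receptors in HFD) against all other cells, and lie between -0.32 and 0.34 against *Lyve1*-positive *Timd4*-negative cells.

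A closer comparison used the *Lyve1*-positive cells without a *Timd4* UMI that met the same *Lyz1*, *Prg4* and *Icam2* limits, 767 in CD (median 3632 UMIs) and 332 in HFD (median 2012.5 UMIs). Since most members have a single *Timd4* UMI, cells that express *Timd4* without a captured UMI are also in this set. The sets differed little. In CD, 22 of 5954 genes (0.369%) were at least 2-fold higher in the members and 8 (0.134%) lower, and in HFD 4 of 889 (0.45%) were higher and 6 (0.675%) lower. The gate allowed *Lyve1* at 0 in the members only, and *Lyve1* had ratios of -0.14 and -0.54. No gene was past 2-fold in both libraries with its direction kept under each alternative, so the following genes were chosen after their values were seen.

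*Cd209b* again had a high ratio, at 462 against 228 CPM in CD (log2 ratio 1.02, interval 0.86 to 1.18) and 300 against 162 CPM in HFD (0.89, 0.37 to 1.39). After thinning, it was found in 37.8% of CD members against 22.4% of *Lyve1*-positive *Timd4*-negative cells, and in 31.1% against 19.6% in HFD. *Cd209f* had ratios of 0.43 and 0.79, *Cd209g* 0.38 and 0.68, and *Folr2* 0.03 and 0.11. *Siglech*, a sialic acid-binding lectin, was at 41.9 against 17.7 CPM in CD (1.24) and not compared in HFD. Without each gene's top member, the one with the most of its UMIs, 21 genes in CD and 14 in HFD were past 2-fold. Of those that rested on few cells, *Lepr*, the leptin receptor, had 82 UMIs in 8 CD members, with 32 in 1 cell, and none in HFD members. *Ccl22* had 41 UMIs in 1 cell, *Fabp5*, a fatty acid-binding protein, 47 of 62 in 1 cell, and the ratio of *Fabp5* fell from 1.39 to -0.66 without that member. *Cd209a* in HFD had a ratio of 1.42, and 0.21 without the members rich in *Ccl17*.

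Of the MHC class II presentation genes, 0 of 10 in CD and 0 of 7 in HFD were past 2-fold, with medians of -0.32 and 0.02. *H2-Ab1*, *H2-Aa*, *H2-Eb1* and *Cd74* had ratios of -0.43, -0.39, -0.41 and -0.34 in CD, and 0.01, 0.20, -0.08 and 0.16 in HFD. Without the members rich in *Ccl17*, the HFD ratios were -0.15, -0.04, -0.21 and -0.13. Per cell, these 4 genes took a median of 182 of 10000 UMIs in CD members (quartiles 71.4 and 392) and 296 in *Lyve1*-positive *Timd4*-negative cells (122 and 478), and 248 against 260 in HFD. The 5 CD209 lectins took a median of 35.6 against 24.8 of 10000 UMIs in CD and 20.8 against 8.57 in HFD. The cells of both sets overlapped over most of their range. *Ccr2* had ratios of -0.83 in CD (198 against 351 CPM) and -0.01 in HFD (314 against 317 CPM). Of the genes of monocyte-derived cells, 0 of 15 were past 2-fold in CD, with a median of -0.29. In HFD 0 of 15 were higher and 1 lower, with a median of 0.03.

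**Figure D4:**
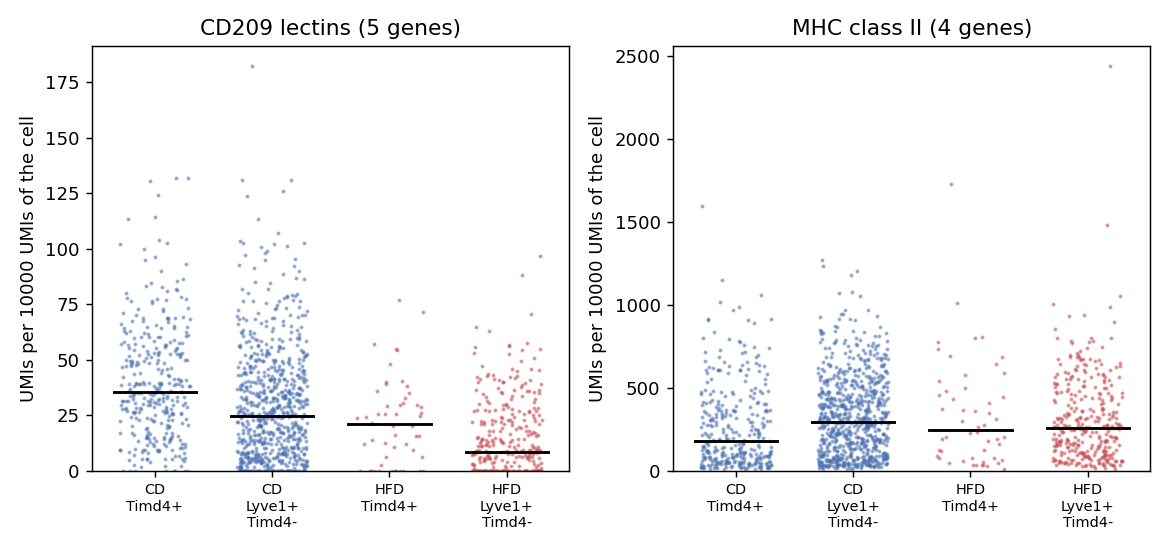
UMIs of the CD209 lectins (left) and of *H2-Aa*, *H2-Ab1*, *H2-Eb1* and *Cd74* (right) per 10000 UMIs of a cell (y axes), for *Timd4*-positive and *Lyve1*-positive *Timd4*-negative cells of each library (x axes). Each point is a cell and bars are medians, 35.6, 24.8, 20.8 and 8.57 on the left from left to right, with wide overlap of all sets.

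By variance over mean, members varied most among themselves in a few mostly abundant genes. At equal relative variation this measure is larger in genes with a higher mean. With each member thinned to 1500 UMIs (315 CD and 45 HFD members), the Fano factor, the variance over the mean, was at least 2 in 38 of 899 genes in CD and 79 of 1025 in HFD. *Retnla*, a secreted product of alternatively activated macrophages, was highest in both libraries (26.8 in CD and 42.3 in HFD). It took 259 of 10000 UMIs in the median CD member, from 17.7 to 1622, and 159 in the median HFD member, from 14.2 to 1080. *Cd74* (17.7 and 25.8), *Malat1*, a nuclear noncoding RNA (13.9 and 27.6), *Actb* (14.8 and 13.3), *H2-Aa* (8.18 and 10.7) and *H2-Ab1* (7.46 and 14.7) were also among the 8 highest in both. *Apoe* (7.18) and *H2-Eb1* (6.96) completed them in CD. *Gm26737* (21.0) and *Mucl1* (11.1) completed them in HFD, with their thinned UMIs in 1 and 2 cells.

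The members also differed by *Lyve1*. In CD, 7 of 1434 genes compared were at least 2-fold higher in members with a *Lyve1* UMI and 13 lower. In HFD it was 7 and 11 of 368. In CD, the 68 members without a *Lyve1* UMI had a lower median depth (3338 UMIs) than the 263 with one (4113 UMIs). Members with *Lyve1* had more *Folr2* (2446 against 1436 CPM, log2 ratio 0.77), *Fcna* (1045 against 484 CPM, 1.11) and *Cd209d* (958 against 476 CPM, 1.01), and less *H2-Aa* (4994 against 8175 CPM, -0.71), *Ccr2* (163 against 365 CPM, -1.17) and *Fn1* (104 against 378 CPM, -1.86). In HFD, with 24 and 28 members, the ratios were 0.42 for *Folr2*, 1.05 for *Fcna*, 2.25 for *Cd209d*, -1.03 for *H2-Aa* and 0.04 for *Ccr2*. *Fn1* had too few UMIs in HFD to be compared, 25 with and 9 without *Lyve1*, and 1 member with *Lyve1* held 19 of the 25. The CD members with 2 or more *Timd4* UMIs had a median depth of 4711 UMIs, and those with 1 had 3746 UMIs. The former, over the latter, had ratios of 0.16 for *Folr2*, 0.32 for *Lyve1*, 0.47 for *Cd209f* and -0.04 for *H2-Aa*. Of 2656 genes compared, only 9 were at least 2-fold higher and 6 lower, and the following were picked for their size. The ratios were further from 0 for *Fn1* (-0.91), *Stmn1* (-1.37), *Mucl1* (1.72) and *Hist1h2ap* (-4.93, from 2 and 123 UMIs). They were so too for *Fabp5* (3.99, from 55 and 7 UMIs) and *Ccl22* (4.79, from 41 and 0 UMIs), where 1 cell held all UMIs of *Ccl22*. Most UMIs of *Fabp5* were also in 1 cell.

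Between diets, *Hspa1b*, *Hspa1a*, *Plin2* and *Mt2* were among the genes at higher levels in HFD members than in CD members, and *Pla2g2d*, *Ccl8* and *Cbr2* among those at lower levels. Of 881 genes compared, 17 (1.93%) were at least 2-fold higher in HFD and 16 (1.82%) lower, with a median log2 ratio of -0.03. In all other kept cells 132 of 9679 genes (1.36%) were higher and 259 (2.68%) lower. Both comparisons use the same 2 libraries, so they are given side by side and share whatever set the libraries apart. In the members, 11 higher and 15 lower genes kept their direction under each alternative.

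*Hspa1b*, which encodes an inducible HSP70 chaperone, had the highest ratio of the genes that kept their direction, at 50.7 CPM in CD members and 294 CPM in HFD members (log2 ratio 2.53, interval 1.96 to 3.10). It was at 45.2 and 125 CPM in other cells (1.46, 1.30 to 1.62). *Hspa1a*, its close copy, was at 561 and 1335 CPM in members (1.25) and 336 and 577 CPM in other cells (0.78), and reads of both genes may not be told apart fully. Without the members rich in *Ccl17*, the ratio of *Hspa1b* was 2.08 and that of *Hspa1a* 0.996. In the heat shock list 2 of 10 genes were higher and 0 lower in members, with a median of 0.53, and 1 of 15 was higher in other cells, with a median of 0.27. *Hspa8*, the constitutive form, had a ratio of 0.57.

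*Plin2*, which coats lipid droplets, was at 359 CPM in CD members and 1295 CPM in HFD members (1.85, 1.61 to 2.10), and at 349 and 1026 CPM in other cells (1.56, 1.501 to 1.61). It was seen in 38.4% of CD and 66.7% of HFD members after thinning. *Cd36* was at 1344 and 2637 CPM in members (0.97, 0.81 to 1.13) and 744 and 990 CPM in other cells (0.41, 0.37 to 0.46), so the intervals did not overlap. All 5 lipid uptake and storage genes compared had ratios above 0, with 1 past 2-fold. Their median, 0.82, was the ratio of *Fabp4*, which was 0.15 without its top member. *Lpl* had a ratio of 0.79 in members and 0.04 in other cells. *Abca1* was at 225 and 320.5 CPM in members (0.51, 0.04 to 0.95) and 104 and 115.9 CPM in other cells (0.15).

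*Mt2*, a metallothionein that binds zinc and copper, was at 141 and 467 CPM in members (1.73) and 149 and 190 CPM in other cells (0.34). *Lgals3*, galectin-3, was at 369 and 1095 CPM in members (1.57) and 950 and 2005 CPM in other cells (1.08). *Cebpb*, a transcription factor of inflammatory and stress responses, was at 422 and 1195 CPM in members (1.503) and 697 and 1438 CPM in other cells (1.05). *Trim25*, a ubiquitin ligase of antiviral sensing, had ratios of 1.49 in members and 0.79 in other cells, *Cd44*, a hyaluronan receptor, 1.24 and 0.55, *Cd300a*, an inhibitory receptor, 1.10 and 0.65, *Fam43a* 1.03 and 0.11, and *Stk17b*, a kinase, 1.02 and 0.26. The intervals of members and other cells overlapped for *Plin2* and *Cd300a* and did not for the other 9 higher genes, each with the higher ratio in the members. These intervals include the members rich in *Ccl17*. For the heat shock pair the rise was not particular to the members. *Hspa1a* and *Hspa1b* together took a median of 3.86 of 10000 UMIs per cell in CD members and 8.39 in HFD members. In *Lyve1*-positive *Timd4*-negative cells they took 3.90 and 9.64, and in all other kept cells 2.16 and 4.42.

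*Ccl17* and *Il1b* were also higher in HFD members, and each rested on 1 or 2 cells. The ratio of *Ccl17* was 5.18 (interval 4.62 to 5.78). For *Il1b* the ratio was 1.57 (112 and 334 CPM), and it was -0.057 without the members rich in *Ccl17*. *Ccl4*, a chemokine for monocytes, had a ratio of 1.10, and 0.24 without those members. *Tmsb10*, an actin-binding peptide, had a ratio of 1.30, and -0.38 without them.

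The lower genes held several of the genes that set members apart from other cells. *Pla2g2d*, a secreted phospholipase, was at 240 CPM in CD members and 73.4 CPM in HFD members (-1.71), and at 74.2 and 16.6 CPM in other cells (-2.16). *Ccl8* was at 554 and 180 CPM in members (-1.62, -2.23 to -1.07) and 247 and 23.2 CPM in other cells (-3.41, -3.63 to -3.19). *Cbr2* was at 916 and 314 CPM in members (-1.55) and 394 and 62.5 CPM in other cells (-2.66). *Ly6e* had ratios of -1.32 in members and -1.95 in other cells, and *F13a1* -1.08 and -1.22. *Rnaset2b* and *Rnase4*, both ribonucleases, had -1.40 and -1.16 in members, *Aif1*, an actin-bundling protein, -1.17, *Hpgd*, which degrades prostaglandins, -1.20, *Cd302*, a C-type lectin, -1.28, *Tppp3* -1.16 and *Fcrls* -1.08. For *Ccl8*, *Cbr2* and *Ly6e* the ratio was closer to 0 in the members than in other cells, without overlap of the intervals, and for *Tppp3* and *Fcrls* it was further from 0.

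**Figure D5:**
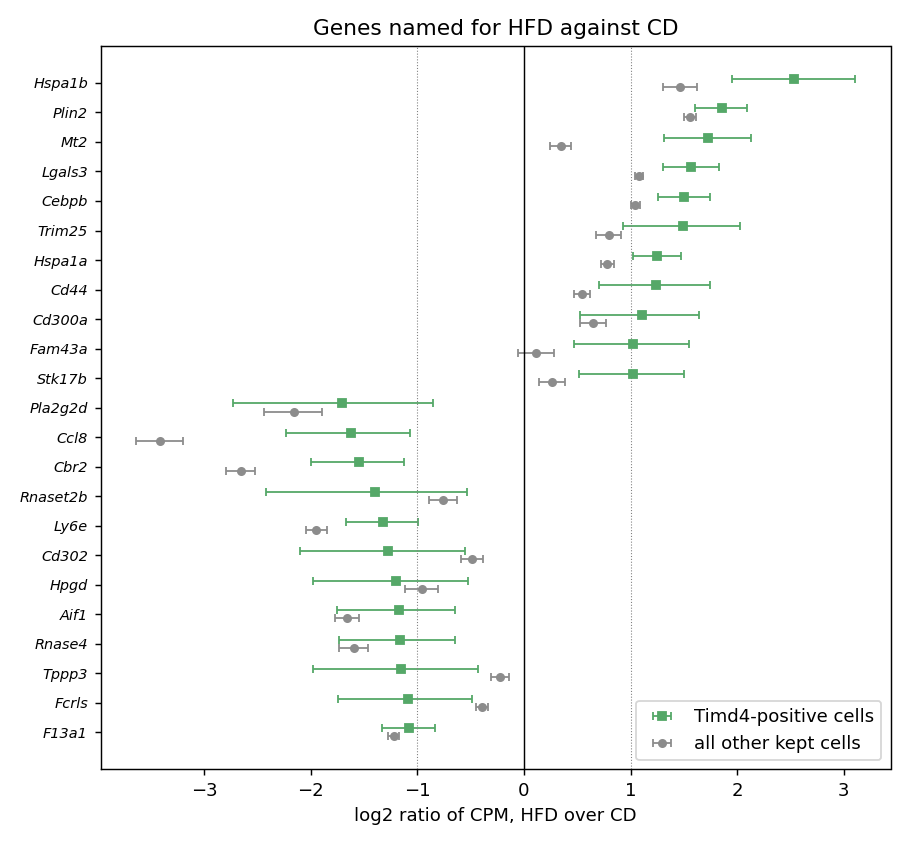
Log2 ratio of CPM of HFD over CD (x axis) for the named genes (y axis), in *Timd4*-positive cells (green squares) and in all other kept cells (grey circles), with exact 95% counting intervals. Dotted lines mark a ratio of 2-fold. Both sets moved in the same direction for the genes shown, except that the interval of *Fam43a* in other cells includes 0.

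Resident macrophage markers had 0 of 18 genes higher and 2 lower in HFD members, with a median of -0.43, and 0 of 20 higher and 8 lower in other cells, with a median of -0.79. *Lyve1* was at 707 and 527 CPM in members (-0.42, -0.77 to -0.09) and 256 and 91.1 CPM in other cells (-1.49, -1.61 to -1.37). *Folr2* was at 2272 and 1202 CPM (-0.92) and 997 and 271 CPM (-1.88). *Selenop* had ratios of -0.46 and -0.96, *Gas6* -0.79 and -1.40, and *Csf1r* -0.44 and -0.72. *Fcna* was at 948 and 955 CPM in members (0.01, -0.25 to 0.26) and at 373 and 227 CPM in other cells (-0.72). Of the lectins, *Cd209f* had ratios of -0.85 and -2.33, *Cd209g* -0.58 and -1.88, *Cd209b* -0.62 and -1.499, and *Cd209d* -1.48 and -2.23. For *Lyve1*, *Folr2*, *Selenop*, *Gas6*, *Fcna* and these lectins the intervals of members and other cells did not overlap. The levels of other cells move with the share of *Lyve1*-positive cells among them, and the part of this in the ratios was not tested.

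Of the other lists, chemokines and cytokines had 3 higher (*Il1b*, *Ccl3* and *Ccl4*) and 1 lower (*Ccl8*) of 10 between diets, with a median of 0.62 against 0.29 in other cells. Without the members rich in *Ccl17*, the ratios of *Il1b*, *Ccl3* and *Ccl4* were -0.057, 0.997 and 0.24, all under 2-fold. The bridging ligands and engulfment genes had 0 of 8 past 2-fold, with a median of -0.46. Lysosomal genes had 0 of 32 higher and 1 lower between diets, with a median of -0.03, and scavenger and lectin receptors 0 of 15 higher and 1 lower (-0.26). MHC class II presentation genes had 0 of 7 past 2-fold, with a median of 0.37. *Cd74* had a ratio of 0.49 and *H2-Aa* 0.40, and 0.21 and 0.16 without the members rich in *Ccl17*. The growth factors had 0 of 5 past 2-fold and none above 0, with a median of -0.65 and *Igf1* at 497 and 260 CPM (-0.93). *Malat1* was at 30289 and 44872 CPM in members (0.57) and 23342 and 32345 CPM in other cells (0.47). *Apoe* had ratios of -0.16 and -0.21, *Pltp* -0.39 and -0.09, *Klf4* -0.38 and -0.21, and *Lipa* -0.32, with an interval from -1.06 to 0.34 in members. *Ccr2* was at 198 and 314 CPM in members (0.67, 0.19 to 1.12), and 0.40 without the members rich in *Ccl17*.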

How the data were processed

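The values deposited were raw UMI counts, 1 matrix a library. The submitters' processing notes name mm10 and Cell Ranger 3.0.2. Barcodes and genes were used as deposited, with 15003119 UMIs in CD and 9164686 in HFD, which sets the precision of each value. Members and gene lists were chosen with earlier results of these data known.

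From the counts, scripts in Python 3.11.15 (pandas 2.3.3, scipy 1.17.1, numpy 2.4.6) gave sums over cells, CPM, exact conditional binomial intervals of ratios, exact Poisson intervals of levels and Clopper-Pearson intervals of shares, at 95%. A gene at 0 in 1 set was set to a floor of 3 counts. Mitochondrial genes, ribosomal protein genes and Gm genes that RefSeq types as pseudogenes were not compared. The named genes were the 12 highest and 12 lowest by mean ratio against other cells (5 and 5 against *Lyve1*-positive *Timd4*-negative cells), past 2-fold in both libraries, the 12 highest and 12 lowest between diets, each with the same direction under every listed alternative setting, the 8 highest Fano factors per library, genes that the study named and the extremes of each list. Some genes that met this rule are not reported here. On simulated counts for the members against other cells in CD, 96.0% of 5951 intervals held the true ratio. These counts were drawn with counting error only, so this does not show how the intervals hold with the spread among real cells. Doublets were not called. Alternatives changed the gate, filters, depth weighting and totals.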

Additional observations from a re-analysis of the deposited data

Results flagged for a closer look

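Of 881 genes compared between diets, 20 had an HFD to CD ratio in the members and in all other kept cells with intervals on opposite sides of 0. The 9 among them that were past 2-fold, or were named by the rule for any comparison, are given here, and the difference was not tested, since each diet has 1 library. *Fabp4*, a fatty acid-binding protein, had a log2 ratio of 0.82 in members and -0.31 in other cells, and 0.15 in members without its top member, the cell with more of its UMIs than any other. *Actb* had 0.13 in members and -0.38 in other cells. *Tmsb10* had 1.30 and -0.17, with 43.7% of its HFD members' UMIs in 1 cell, and -0.38 in members without those rich in *Ccl17*. *Retnla* had -0.41 in members and 0.19 in other cells. *Fcgr3* had -0.49 and 0.22, *Ftl1*, a ferritin chain, -0.21 and 0.07, and *Junb* -0.17 and 0.09. *Hmox1*, heme oxygenase, had 0.47 in members and -0.13 in other cells, and *Dnajb1*, a heat shock cochaperone, 0.66 and -0.16, and in members these became -0.069 and 0.0091 without the top member of each gene.

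Among the 2043 CD barcodes of 200 to 3500 genes that were over the mitochondrial limit, and so in no comparison, 4.60% (94 barcodes) met the *Timd4*, *Lyz1*, *Prg4* and *Icam2* limits, a *Timd4* signal outside the compared cells. In HFD it was 2.14% of 1120. After thinning to 1500 UMIs, a *Timd4* UMI was kept in 7.86% of 369 such CD barcodes and 4.29% of 70 in HFD. Among kept cells with at least 10 *Lyz1* UMIs and none of *Prg4* and *Icam2*, it was kept in 1.35% and 0.497%.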

How the results depend on the processing

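The share of members was 14.0% in CD and 2.57% in HFD, and 6.52% and 1.90% with *Timd4* read on thinned counts, 4.15% and 0.297% with at least 2 *Timd4* UMIs, and 10.5% in CD with a mitochondrial limit of 5%. Genes past 2-fold against other cells numbered 370 in CD and 128 in HFD. They were 224 in CD with *Timd4* on thinned counts, 157 and 17 with at least 2 *Timd4* UMIs, 166 and 47 with the other cells weighted to the members' depth, 218 and 69 with the mean over cells, and 575 and 245 with 10 expected UMIs. Against *Lyve1*-positive *Timd4*-negative cells they were 30 and 10, and 17 and 3 on thinned counts, 9 and 2 with 2 *Timd4* UMIs, and 99 and 47 with 10 expected UMIs. Between diets the 33 genes became 13, 5 and 119 under thinned counts, 2 *Timd4* UMIs and 10 expected UMIs. The number of variable genes in HFD rose from 79 to 166 with 2 *Timd4* UMIs. Fewer members enter some of these settings, 98 in CD and 6 in HFD with 2 *Timd4* UMIs, and 155 and 27 with the mitochondrial limit of 5%.

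Of the single-gene ratios under all settings, 4294 stayed within the interval of the reported value, 887 moved outside it, and 13 that had been past 2-fold changed sign. Of the former, 279 with a reported ratio under 2-fold also changed sign. For members against other cells, weighting to depth moved 60 ratios outside and left 24 within in CD, and moved 44 and left 33 in HFD. With the mean over cells, 50 moved and 34 stayed in CD, while 41 moved, 35 stayed and 1 changed sign in HFD. At the mitochondrial limit of 5%, 42 moved and 42 stayed in CD, and 20 moved and 57 stayed in HFD. Members held a median of 5.17% mitochondrial UMIs in CD and 4.59% in HFD, and all other kept cells 3.87% and 3.58%. *Plac8* against other cells in HFD became -1.17 on thinned counts, -3.79 without the deepest 5% of cells, -0.58 with the mean over cells, -3.50 without cells rich in *Ccl17* and -3.58 without its top member. *Ccl7* there became -0.53 with 2 *Timd4* UMIs. *Fabp5* against *Lyve1*-positive *Timd4*-negative cells in CD became -0.66 without cells rich in *Ccl17* or without its top member, and -0.59 without cells with 2 markers of another type. Between diets *Il1b* became -0.074 with 2 *Timd4* UMIs, -0.052 without the deepest cells and -0.057 without cells rich in *Ccl17* (0.094 without its top member), and *Cd209d* 0.24 with 2 *Timd4* UMIs. The settings that leave out cells rich in *Ccl17*, cells with markers of another type or the top member of each gene were chosen after seeing the data. The cause of the changes under the other settings was not tested. No paired analysis was possible because each diet has 1 library.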
